A study of Mus musculus with 18 samples.

Results

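The early response to deltaCnA induction was followed by setting the 2 arrays of day 1 of tetracycline (Tc) withdrawal against the 2 arrays of day 0, which are 4 of the 18 arrays of the series. The arrays were chosen by their titles, and a probe was used where its detection p-value was under 0.05 on both arrays of at least 1 of these groups. That left 19005 of 46632 probes, of which 14234 carry a gene symbol and stand for 9941 genes. Tc removal induces deltaCnA, an active form of the catalytic subunit of calcineurin, in the mouse embryonic stem cell line ideltaCnAES, which derives from CGR8 cells of strain 129P2/Ola. The day 1 group is ideltaCnAES cells after 1 day without Tc, and the day 0 group is the same cells before Tc was withdrawn. Day 4 of the same course (2 arrays) and days 0 and 1 of CGR8 cells kept without leukaemia inhibitory factor (LIF) (2 arrays each) are used beside them. RNA levels were read on Illumina's Sentrix Mouse-6 BeadChips, on which bead-bound oligonucleotides capture each transcript. The labels do not say which promoter drives deltaCnA, whether the line is a single clone, or whether LIF was present during Tc withdrawal. All the deltaCnA groups carry the transgene, and a line without it taken through Tc withdrawal is not analysed here, so deltaCnA, the loss of Tc and time in culture cannot be told apart.

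Calcineurin is a calcium- and calmodulin-dependent protein phosphatase made of a catalytic A subunit and a regulatory B subunit. Its best-known substrates are the NFAT transcription factors, which enter the nucleus once dephosphorylated, and cyclosporin A blocks it. A truncated A subunit that lacks the autoinhibitory part is active without calcium. In mouse embryonic stem cells, LIF acts through STAT3 to hold the undifferentiated state, and the calcineurin-NFAT pathway has been tied to the exit from that state. The integrated stress response is a separate pathway in which kinases phosphorylate the initiation factor eIF2, ATF4 protein is made, and ATF4 with C/EBP partners turns on genes for amino acid supply and stress.

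The 4 arrays were of even quality, with 40.5% to 42.0% of probes detected and mean intensities of 484 and 372 at day 1, against 481 and 344 at day 0. All 5 measured stem cell markers (Pou5f1, Sox2, Nanog, Zfp42 and Utf1) were detected on all 4 arrays, and their summed linear level was 17317 and 19007 at day 1, against 19788 and 18773 at day 0. Of 6 fibroblast markers 1 was detected on both arrays of each group, and 5 were detected on none. The summed fibroblast level was 112 and 141 at day 1, against 109 and 106 at day 0. Pearson correlations of log2 levels over genes, as a description, were 0.993 between the day 1 arrays and 0.994 between the day 0 arrays. Replicate 1 of day 1 lay further from the day 0 mean than replicate 2 in 1006 of the 1291 genes called below, or 77.9%, against 60.8% of all genes. The files give no slide or scan batch for the arrays, and a part of any such batch in the results was not tested.

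After 1 day, 1291 of 9941 genes, or 13%, differed from day 0 at an adjusted p under 0.05 and are called here. Of these 755 rose (7.59%) and 536 fell (5.39%). At least a 2-fold change was seen for 97 of the risen and 58 of the fallen genes, and the median change over all genes was 0.01 on the log2 scale. Levels are log2 normalized intensities, a change is the day 1 mean minus the day 0 mean with its standard error (2 arrays each), and the p-values come from limma with Benjamini-Hochberg adjustment over the 9941 genes. The number called depended on single arrays, and without day 1 replicate 1 it was 275, without day 1 replicate 2 it was 1156, without day 0 replicate 1 it was 739 and without day 0 replicate 2 it was 368. In bulk RNA, fewer cells that express a gene and less RNA per cell cannot be told apart.

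**Figure D1:**
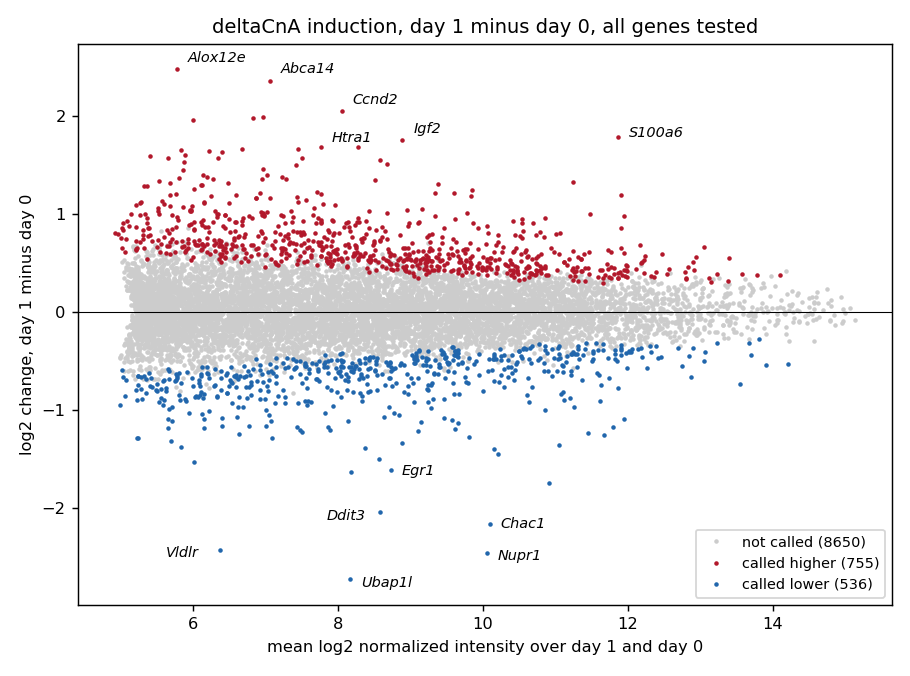
Change at day 1 of deltaCnA induction (day 1 minus day 0, log2 scale, y axis) against the mean log2 normalized intensity of both days (x axis) for 9941 genes, each a point. The 755 genes called higher reach 2.47 for Alox12e, the 536 called lower reach -2.73 for Ubap1l, and 8650 were not called.

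The 15 largest rises ran from 1.63 to 2.47 on the log2 scale. Alox12e, an epidermis-type lipoxygenase that oxidizes arachidonic acid, stood at 7.03 and 6.996 at day 1, against 4.67 and 4.41 at day 0. It was detected on both day 1 arrays and on neither day 0 array, so its fold is a bound of at least 3.60 (2.47 ± 0.25, adjusted p = 2.38e-06). Abca14, an ABC transporter of the A subfamily, read 8.32 and 8.16 at day 1, against 6.23 and 5.53 at day 0, which is 5.14-fold higher (2.36 ± 0.22, adjusted p = 1.07e-06). Both day 1 arrays stood well above both day 0 arrays for each gene. Cyclin D2, which with CDK4 or CDK6 moves cells through G1, was next, with Ccnd2 at 9.24 and 8.90 at day 1, against 7.08 and 6.97 at day 0 (4.14-fold, 2.05 ± 0.23, adjusted p = 6.42e-06). A second Ccnd2 probe rose by 2.15 (adjusted p over probes = 0.000202). Ccno, a cyclin known for the making of multiple cilia, read 8.25 and 7.68 at day 1, against 6.33 and 5.62 at day 0 (1.99 ± 0.22, adjusted p = 6.42e-06). Both cyclins were thus higher on each day 1 array than on either day 0 array.

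S100a6, a small calcium-binding protein, was a bright member of the group at 12.96 and 12.54 at day 1, against 10.90 and 11.03 at day 0 (3.44-fold, 1.78 ± 0.17, adjusted p = 1.07e-06). Igf2, an imprinted growth factor, stood at 10.06 and 9.47 at day 1, against 8.31 and 7.71 at day 0 (3.38-fold, 1.76 ± 0.23, adjusted p = 4.16e-05). Slc40a1, the iron exporter ferroportin, read 9.58 and 8.67 at day 1, against 7.51 and 7.38 at day 0, and Htra1, a secreted serine protease, read 8.87 and 8.34 at day 1, against 6.95 and 6.91 at day 0. Their changes were 1.68 ± 0.20 and 1.68 ± 0.23. Esam, an adhesion molecule of endothelial junctions, read 8.60 and 7.04 at day 1, against 5.91 and 5.77 at day 0, so its day 1 arrays lay further apart than its day 0 arrays (1.98 ± 0.33, adjusted p = 0.00045). Robo4, a receptor best known from endothelium, read 8.68 and 7.87 at day 1, against 6.74 and 6.50 at day 0, but a second Robo4 probe changed by -0.11 and was not called (adjusted p over probes = 0.787). The other largest rises were Hopx, a homeodomain-only cofactor (at least 3.44-fold, detected on 1 of 2 day 0 arrays), the long noncoding RNA Miat (3.16-fold), Limch1, an actomyosin regulator (at least 2.78-fold, detected on 1 of 2 day 0 arrays), Crabp2, which carries retinoic acid to its receptor (3.11-fold), and Cryab, a small heat shock protein (3.09-fold).

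The 15 largest falls ran from -1.36 to -2.73. Ubap1l, related to a subunit of the ESCRT-I sorting complex, read 5.62 and 7.98 at day 1, against 9.34 and 9.72 at day 0 (6.62-fold lower, -2.73 ± 0.46, adjusted p = 0.000514). Nupr1, a small nuclear stress protein, read 7.57 and 10.08 at day 1, against 11.09 and 11.47 at day 0 (-2.46 ± 0.44, adjusted p = 0.000783). In both, the day 1 arrays lay more than 2 log2 units apart and yet both were below the day 0 arrays. Vldlr, the very low density lipoprotein receptor, stood at 4.73 and 5.60 at day 1, against 7.54 and 7.65 at day 0 and was detected on 1 of 2 day 1 arrays, a fall of at least 4.63-fold (-2.43 ± 0.30, adjusted p = 1.79e-05). A second Vldlr probe fell by 1.64 (adjusted p over probes = 0.000782). Chac1, an enzyme that degrades glutathione, read 7.77 and 10.26 at day 1, against 11.20 and 11.15 at day 0 (-2.16 ± 0.41, adjusted p = 0.00117). Ddit3, which encodes the stress factor CHOP, read 7.29 and 7.84 at day 1, against 9.50 and 9.72 at day 0 (4.13-fold lower, -2.05 ± 0.20, adjusted p = 1.07e-06). Of these 5, Ddit3 had the smallest standard error.

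Lefty2, an inhibitor of Nodal signalling, read 9.55 and 10.52 at day 1, against 11.75 and 11.82 at day 0 (3.36-fold lower, -1.75 ± 0.29, adjusted p = 0.000389). The immediate early transcription factor gene Egr1 read 7.66 and 8.19 at day 1, against 9.62 and 9.44 at day 0 (3.05-fold lower, -1.61 ± 0.26, adjusted p = 0.000317). Cebpb, a C/EBP transcription factor, read 7.41 and 7.95 at day 1, against 8.83 and 9.30 at day 0 (-1.39 ± 0.19, adjusted p = 5.18e-05). Ephx2, the soluble epoxide hydrolase of lipid signalling, read 9.14 and 9.84 at day 1, against 10.77 and 11.10 at day 0, and its change was -1.45 ± 0.25. Serpinf1, which encodes a secreted serpin, read 5.22 and 5.28 at day 1, against 6.61 and 6.95 at day 0, while a second Serpinf1 probe changed by -0.03 and was not called (adjusted p over probes = 0.962). The remaining large falls were Napsa, an aspartic protease (3.10-fold), Got1l1, related to an aspartate aminotransferase (2.83-fold), Bdh2, a hydroxybutyrate dehydrogenase (2.64-fold), Zfp521, a zinc finger factor (at least 2.48-fold, detected on 1 of 2 day 1 arrays), and Cryzl1, which is related to quinone reductases (2.56-fold). In all 30 of these risen and fallen genes the day 1 and day 0 arrays did not overlap, as was true of 55.2% of all genes tested. The 30 were picked as the largest called changes on these arrays, so their separation is partly built in. All 30 kept their direction and their call under each alternative processing tried and without each of the 4 arrays.

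**Figure D2:**
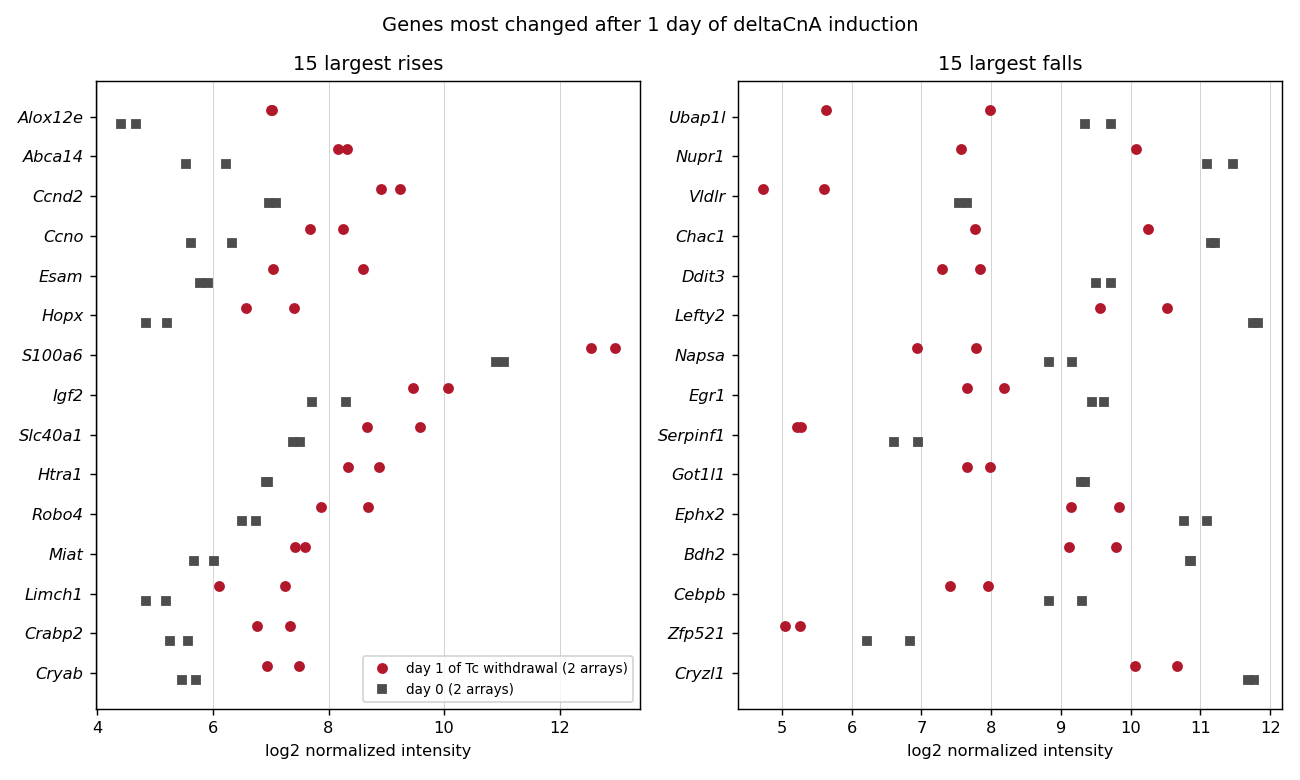
Log2 normalized intensity (x axis) of the 15 largest rises (left) and 15 largest falls (right), 1 gene a row, with the 2 day 1 arrays as red circles above the 2 day 0 arrays as grey squares. The groups do not overlap in any of the 30 genes, and the day 1 arrays lie widest apart for Ubap1l, Nupr1 and Chac1.

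Genes of the integrated stress response fell together at day 1. Of 24 list members measured, 14 fell and 0 rose, against 5.39% of all genes falling, and all 24 had a change below 0. At an unadjusted p under 0.05, limma gave 16 lower and 0 higher. The median change was -0.92, against 0.01 over all genes. The list was drawn up with these data known, so its count is a description. Its calls depended on single arrays, most of all on day 1 replicate 1, as the next paragraph lists. In all 14 fallen members replicate 1 of day 1 lay further from the day 0 mean than replicate 2.

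Beside Nupr1, Vldlr, Chac1, Ddit3 and Cebpb, 9 further members fell. Atf4, the central transcription factor, read 8.26 and 9.34 at day 1, against 9.84 and 9.71 at day 0 (-0.98 ± 0.25, adjusted p = 0.012) on its brightest probe. Other kept probes, which were not called, changed by -0.54 and -0.11 for Atf4 (adjusted p over probes = 0.0746 and 0.787). Trib3, a pseudokinase that restrains ATF4, read 8.54 and 9.48 at day 1, against 10.20 and 10.21 at day 0 (-1.19 ± 0.22, adjusted p = 0.0012), and both of its other probes also fell, by 0.96 and 1.43. Herpud1, a part of the machinery that removes misfolded proteins from the endoplasmic reticulum, read 6.76 and 7.80 at day 1, against 8.36 and 8.55 at day 0 (-1.18 ± 0.21, adjusted p = 0.000667). The changes of the others were -1.20 for Slc6a9, -1.17 for Atf5, -1.16 for Jdp2, -1.03 for Gpt2, -0.86 for Stc2 and -0.36 for Slc7a5. Slc6a9 and Slc7a5 carry amino acids into the cell, and the other amino acid transporters of the list were not called, at -0.45 for Slc7a1, -0.14 for Slc7a3, -0.13 for Slc7a11 and -0.05 for Slc38a2. Atf5 and Jdp2 are bZIP factors, Gpt2 (also in the amino acid list) is a mitochondrial alanine aminotransferase and Stc2 is a secreted glycoprotein. The 10 members not called ran from -0.68 for Ddit4 to -0.03 for Eif4ebp1, and Ddit4, an inhibitor of mTORC1, was detected on neither day 1 array (adjusted p = 0.0557, and under 0.05 in 6 of the alternatives). The calls of Trib3, Slc6a9, Atf5, Jdp2, Atf4, Stc2, Gpt2 and Slc7a5 ended without day 1 replicate 1, with adjusted p of 0.0803, 0.368, 0.109, 0.113, 0.376, 0.0562, 0.243 and 0.266 in that order. The call of Slc7a5 ended without day 1 replicate 2 (adjusted p = 0.0532). The calls of Atf4, Gpt2 and Slc7a5 ended without day 0 replicate 1, with adjusted p of 0.083, 0.103 and 0.305 in that order. The calls of Slc6a9, Atf5, Atf4 and Stc2 ended without day 0 replicate 2, with adjusted p of 0.0876, 0.0963, 0.0687 and 0.0684 in that order.

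The promoters of 5 of the fallen genes are shown because they hold the short element that ATF4 and C/EBP proteins are known to bind, here searched as TGATGNAA on both strands. Each runs from 250 bases before to 50 after the gene's start on RefSeq's GRCm38.p6, 5′ to 3′ on the gene's strand, and capitals mark the match, which in all 5 lies on the opposite strand. Chac1 is at chr2:119350992-119351291, plus strand, Nupr1 at chr7:126625421-126625720, minus strand, Vldlr at chr19:27216770-27217069, plus strand (the second of 2 starts in the table), Trib3 at chr2:152344011-152344310, minus strand and Iars, a tRNA synthetase gene described next, at chr13:49681880-49682179, plus strand.
Chac1: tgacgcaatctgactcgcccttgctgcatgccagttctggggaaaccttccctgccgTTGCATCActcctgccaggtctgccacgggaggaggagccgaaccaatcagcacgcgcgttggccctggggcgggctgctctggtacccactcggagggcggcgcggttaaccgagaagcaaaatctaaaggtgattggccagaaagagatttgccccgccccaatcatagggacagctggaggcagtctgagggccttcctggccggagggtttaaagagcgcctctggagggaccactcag
Nupr1: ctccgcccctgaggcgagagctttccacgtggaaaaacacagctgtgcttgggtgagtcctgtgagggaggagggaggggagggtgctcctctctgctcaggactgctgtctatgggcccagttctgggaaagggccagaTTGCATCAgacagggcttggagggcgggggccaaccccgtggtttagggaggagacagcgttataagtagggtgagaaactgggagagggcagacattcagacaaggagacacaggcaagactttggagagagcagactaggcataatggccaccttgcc
Vldlr: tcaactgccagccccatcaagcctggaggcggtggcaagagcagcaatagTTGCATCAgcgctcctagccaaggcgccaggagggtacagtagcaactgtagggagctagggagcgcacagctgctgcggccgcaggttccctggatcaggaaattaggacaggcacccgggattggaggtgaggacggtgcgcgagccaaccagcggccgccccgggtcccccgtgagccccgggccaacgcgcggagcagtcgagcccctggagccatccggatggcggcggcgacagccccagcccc
Trib3: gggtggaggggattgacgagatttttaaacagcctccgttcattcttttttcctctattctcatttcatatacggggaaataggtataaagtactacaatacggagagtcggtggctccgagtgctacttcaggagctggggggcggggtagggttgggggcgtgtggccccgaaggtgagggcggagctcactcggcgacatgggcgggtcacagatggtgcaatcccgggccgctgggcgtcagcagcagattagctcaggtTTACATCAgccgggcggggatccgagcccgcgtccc
Iars: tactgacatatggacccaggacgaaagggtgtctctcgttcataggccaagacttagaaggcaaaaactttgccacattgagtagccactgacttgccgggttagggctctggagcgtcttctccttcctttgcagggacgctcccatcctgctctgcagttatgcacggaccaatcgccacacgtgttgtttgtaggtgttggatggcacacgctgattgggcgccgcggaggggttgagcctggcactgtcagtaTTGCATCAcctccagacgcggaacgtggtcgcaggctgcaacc
The match reads TGATGCAA on the opposite strand in Chac1, Nupr1, Vldlr and Iars, and TGATGTAA in Trib3. It begins 193, 110 and 200 bases before the start in Chac1, Nupr1 and Vldlr, and at base 15 and base 8 after it in Trib3 and Iars. The letters occur in 3.97% of the 32851 promoters of the table and in 2.72% of the 8039 tested genes matched to it by symbol. They occur in 6 of 13 matched integrated stress response genes that fell and in 4 of 7 matched tRNA synthetase genes that fell. They are in 0 of 6 matched fallen genes of amino acid synthesis. Over all matched members, whatever their call, they were in 7 of 21, 5 of 12 and 1 of 10 in that order. These counts include the members that fell, and whether the letters go with a fall within a list was not tested. Among all matched genes the letters were in 0.826% of the 605 that rose and in 5.67% of the 406 that fell, which include the fallen list members. A match is a description of letters, and its part in the changes was not tested.

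Enzymes that make serine, glycine and one-carbon units fell as well, 7 of 12 measured, against 5.39% of all genes falling, with 0 risen (10 and 1 at an unadjusted p under 0.05 in limma) and a median change of -0.80. Psat1, the aminotransferase of serine synthesis, read 11.10 and 11.70 at day 1, against 12.39 and 12.58 at day 0 (2.13-fold lower, -1.09 ± 0.15, adjusted p = 4.73e-05), and a second probe fell by 1.03. Mthfd1l, a mitochondrial enzyme that releases formate, read 10.55 and 10.97 at day 1, against 11.54 and 11.73 at day 0 (-0.88 ± 0.15, adjusted p = 0.000562). Phgdh, the first enzyme of the serine pathway, read 6.24 and 6.17 at day 1, against 6.84 and 7.11 at day 0. Its change and those of the others were -0.77 for Phgdh, -0.89 for Shmt2, -0.82 for Mthfd2 and -0.86 for Cth. Shmt2 and Mthfd2 act in mitochondrial folate metabolism, and Cth makes cysteine. Asns, asparagine synthetase, changed by -0.42 on its brightest probe and was not called (adjusted p = 0.145), while its other probe fell by 0.69 (adjusted p over probes = 0.0119), and 5 of the alternatives called the gene. Cbs, which joins homocysteine to serine ahead of the step of Cth, changed by 0.52 (adjusted p = 0.127) and was called in 2 of the alternatives. Without day 1 replicate 1, 2 members of the list were called lower, without day 1 replicate 2 it was 8, and without either day 0 replicate 6. The calls of Gpt2, Shmt2, Mthfd2, Cth and Phgdh ended without day 1 replicate 1, with adjusted p of 0.243, 0.103, 0.195, 0.08 and 0.0632 in that order. The call of Gpt2 ended without day 0 replicate 1 (adjusted p = 0.103). The call of Phgdh ended without day 0 replicate 2 (adjusted p = 0.121).

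The cytosolic aminoacyl-tRNA synthetases, which load amino acids onto tRNAs, followed in part. Of 18 measured, 10 fell, 1 rose and 7 were not called, against 5.39% of all genes falling and 7.59% rising, with a median change of -0.49. Iars, for isoleucine, fell furthest, at 7.69 and 8.73 at day 1, against 9.50 and 9.60 at day 0 (2.53-fold lower, -1.34 ± 0.22, adjusted p = 0.000396). Sars, for serine, read 10.47 and 10.86 at day 1, against 11.37 and 11.75 at day 0 (-0.90 ± 0.16, adjusted p = 0.000739), and Lars, for leucine, read 13.08 and 13.26 at day 1, against 13.87 and 13.94 at day 0 (-0.74 ± 0.13, adjusted p = 0.000739). For these 3 each day 1 array was below both day 0 arrays. Nars, Cars, Mars1, Aars, Tars, Gars and Eprs fell by between 0.48 and 0.90. Farsa, a subunit of the phenylalanine enzyme, went the other way at 11.02 and 11.07 at day 1, against 10.49 and 10.46 at day 0 (0.57 ± 0.13, adjusted p = 0.00567). The number that fell was 3 without day 1 replicate 1, 10 without day 1 replicate 2, 8 without day 0 replicate 1 and 5 without day 0 replicate 2. Not called were further probes at -0.77 for Cars (adjusted p over probes = 0.0737), 0.13 for Tars (adjusted p over probes = 0.779) and 0.16 for Farsa (adjusted p over probes = 0.529). The calls of Nars, Cars, Mars1, Aars, Tars, Gars and Eprs ended without day 1 replicate 1, with adjusted p of 0.0675, 0.141, 0.125, 0.185, 0.219, 0.203 and 0.261 in that order. The call of Eprs ended without day 1 replicate 2 (adjusted p = 0.0616). The calls of Tars and Eprs ended without day 0 replicate 1, with adjusted p of 0.0548 and 0.051 in that order. The calls of Cars, Aars, Tars, Gars, Eprs and Farsa ended without day 0 replicate 2, with adjusted p of 0.0532, 0.0753, 0.139, 0.131, 0.28 and 0.0631 in that order.

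Targets of p53 formed the fourth group that fell, 7 of 14 measured, against 5.39% of all genes falling, and 0 risen (8 and 0 at an unadjusted p under 0.05 in limma), with a median change of -0.40. Pmaip1, which encodes the death-promoting protein NOXA, read 4.97 and 5.17 at day 1, against 5.99 and 6.52 at day 0 and was detected on neither day 1 array, a fall of at least 2.11-fold (-1.18 ± 0.19, adjusted p = 0.000346). Cdkn1a, the CDK inhibitor p21, read 9.17 and 9.27 at day 1, against 9.90 and 10.01 at day 0 (-0.73 ± 0.15, adjusted p = 0.00282). Trp53inp1 changed by -0.75, Phlda3 by -0.66, Ccng1 by -0.64, Eda2r by -0.47 and Mdm2, the ubiquitin ligase that degrades p53, by -0.44. Without single arrays, in the order day 1 replicates 1 and 2 and day 0 replicates 1 and 2, 4, 4, 6 and 1 members fell, and with median scaling in place of quantile normalization 2 did. Further probes that were not called changed by -0.04, -0.28 and -0.32 for Ccng1 (adjusted p over probes = 0.937, 0.195 and 0.0966). The calls of Trp53inp1, Cdkn1a and Mdm2 ended without day 1 replicate 1, with adjusted p of 0.0647, 0.0514 and 0.0854 in that order. The calls of Phlda3, Eda2r and Mdm2 ended without day 1 replicate 2, with adjusted p of 0.327, 0.182 and 0.0944 in that order. The call of Phlda3 ended without day 0 replicate 1 (adjusted p = 0.0995). The calls of Trp53inp1, Cdkn1a, Phlda3, Ccng1, Eda2r and Mdm2 ended without day 0 replicate 2, with adjusted p of 0.0903, 0.0502, 0.124, 0.0541, 0.215 and 0.19 in that order.

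Among chaperones and degradation factors of the endoplasmic reticulum, 2 of 14 measured rose and 0 fell (4 and 0 at an unadjusted p under 0.05 in limma), against 7.59% of all genes rising, with a median change of 0.22. Herpud1, which also acts in this degradation, was counted with the integrated stress response instead, and it fell (-1.18 ± 0.21, limma adjusted p = 0.000667). The risen genes were Sdf2l1, part of a chaperone complex, at 8.22 and 8.15 at day 1, against 7.55 and 7.65 at day 0 (0.59 ± 0.19, adjusted p = 0.043), and Sel1l, the adaptor of the ubiquitin ligase HRD1, at 9.75 and 9.50 at day 1, against 9.29 and 9.04 at day 0 (0.46 ± 0.14, adjusted p = 0.0301). Hspa5, the main chaperone of the compartment, had no probe that passed the detection filter. Of 14 targets of the oxidative stress factor NRF2, 2 fell and 0 rose (2 and 2 at an unadjusted p under 0.05), against 5.39% of all genes falling, namely Nfe2l2, which encodes NRF2 itself (-0.61 ± 0.15), and the ferritin light chain Ftl1 (-0.44 ± 0.10). Of 15 mitochondrial stress and import genes, Afg3l2 and Timm17a rose and Yme1l1 and Trap1 fell, each by 0.42 or less, so 4 were called, against 13% of all genes. Other kept probes, which were not called, changed by 0.16 for Sel1l (adjusted p over probes = 0.677), 0.25 for Afg3l2 (adjusted p over probes = 0.243) and -0.21 for Yme1l1 (adjusted p over probes = 0.646). The calls of Sdf2l1, Sel1l, Nfe2l2, Ftl1, Afg3l2, Timm17a, Yme1l1 and Trap1 ended without day 1 replicate 1, with adjusted p of 0.239, 0.322, 0.152, 0.192, 0.392, 0.283, 0.59 and 0.286 in that order. The calls of Sdf2l1, Timm17a and Trap1 ended without day 1 replicate 2, with adjusted p of 0.0903, 0.0644 and 0.079 in that order. The calls of Sdf2l1, Afg3l2, Timm17a, Yme1l1 and Trap1 ended without day 0 replicate 1, with adjusted p of 0.178, 0.154, 0.188, 0.119 and 0.0667 in that order. The calls of Sdf2l1, Sel1l, Nfe2l2, Ftl1, Afg3l2, Timm17a, Yme1l1 and Trap1 ended without day 0 replicate 2, with adjusted p of 0.136, 0.29, 0.137, 0.0515, 0.147, 0.126, 0.182 and 0.324 in that order.

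Cholesterol synthesis genes rose, 8 of 15 measured and 0 fallen (10 and 0 at an unadjusted p under 0.05 in limma), against 7.59% of all genes rising, with a median change of 0.44. Srebf2, the transcription factor that switches the pathway on, read 9.45 and 9.23 at day 1, against 8.85 and 8.61 at day 0 (1.52-fold higher, 0.61 ± 0.14, adjusted p = 0.00688). Mvk, mevalonate kinase, read 7.44 and 7.41 at day 1, against 6.64 and 6.86 at day 0, and Mvd, a later enzyme of the same path, read 8.60 and 8.46 at day 1, against 7.99 and 7.86 at day 0. The changes were 0.68 for Mvk, 0.61 for Stard4, 0.60 for Mvd, 0.57 for Pmvk, 0.47 for Fdps, 0.44 for Cyp51 and 0.43 for Sqle, so each rise was under 2-fold. Stard4 carries cholesterol between membranes, and the rest are enzymes of the path. This group rested on quantile normalization and on single arrays. With median scaling 0 were called, and without single arrays, in the order day 1 replicates 1 and 2 and day 0 replicates 1 and 2, 0, 6, 3 and 1 were. Not called were further probes at 0.29 for Srebf2 (adjusted p over probes = 0.255), 0.46 for Fdps (adjusted p over probes = 0.108) and 0.36 for Cyp51 (adjusted p over probes = 0.253). The calls of Mvk, Stard4, Srebf2, Mvd, Pmvk, Fdps, Cyp51 and Sqle ended without day 1 replicate 1, with adjusted p of 0.204, 0.397, 0.129, 0.142, 0.187, 0.136, 0.306 and 0.151 in that order. The calls of Mvk and Pmvk ended without day 1 replicate 2, with adjusted p of 0.0957 and 0.0937 in that order. The calls of Mvk, Stard4, Pmvk, Cyp51 and Sqle ended without day 0 replicate 1, with adjusted p of 0.203, 0.126, 0.239, 0.0635 and 0.136 in that order. The calls of Mvk, Stard4, Srebf2, Mvd, Pmvk, Fdps and Cyp51 ended without day 0 replicate 2, with adjusted p of 0.0988, 0.0853, 0.118, 0.114, 0.0668, 0.163 and 0.261 in that order.

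**Figure D3:**
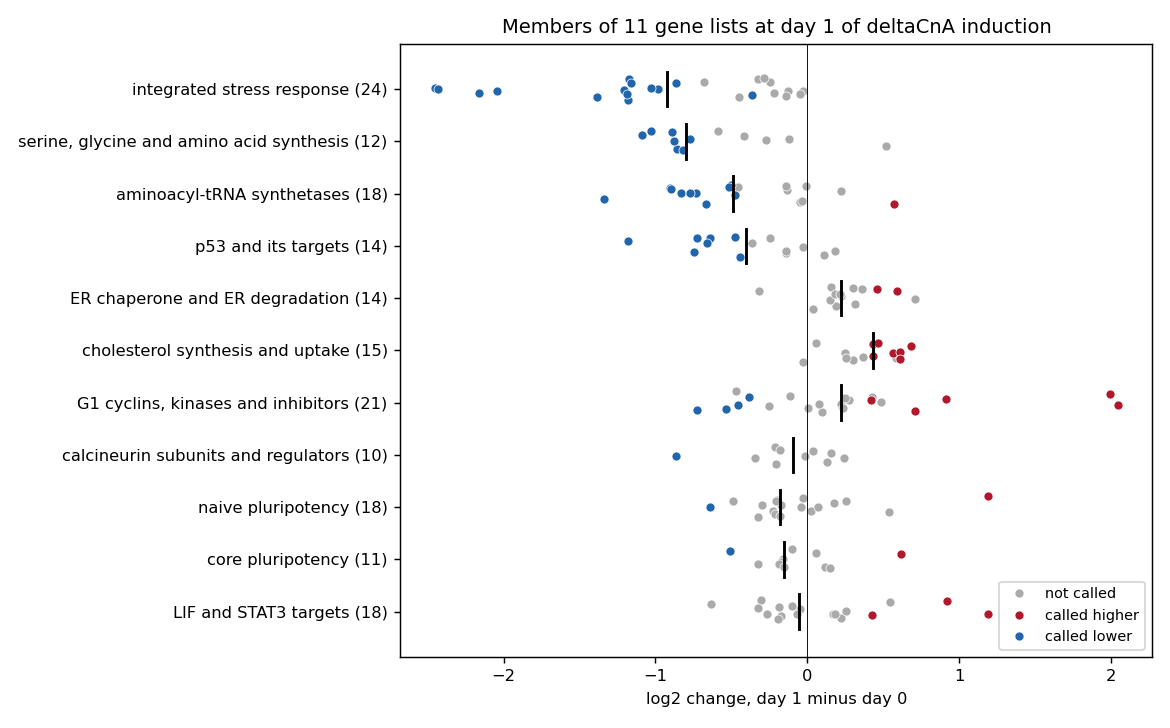
Log2 change at day 1 minus day 0 (x axis) for the measured members of 11 gene lists, with the number measured in brackets. Points are genes, coloured by call, and the black bar is the list's median. The median is -0.92 for the integrated stress response, against 0.44 for cholesterol synthesis and uptake.

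Among G1 regulators of the cell cycle, 9 of 21 measured were called, against 13% of all genes. Of these 5 rose and 4 fell. Beside Ccnd2 and Ccno, the risen genes were Ccne1, the cyclin E that drives entry into S phase, (0.91 ± 0.16, adjusted p = 0.000713), the transcription factor E2f3 (0.71 ± 0.15) and cyclin D1 (Ccnd1, 0.42 ± 0.11). The fallen genes were the CDK inhibitors Cdkn1a (-0.73 ± 0.15) and Cdkn1c (-0.53 ± 0.13), the retinoblastoma gene Rb1 (-0.46 ± 0.13) and E2f1 (-0.39 ± 0.12). Further probes that were not called changed by -0.05 and 0.07 for E2f3 (adjusted p over probes = 0.919 and 0.875) and 0.08, 0.36 and 0.55 for Ccnd1 (adjusted p over probes = 0.866, 0.206 and 0.0631). Of 17 DNA replication genes limma called 0, with 1 at an unadjusted p under 0.05, and of 15 mitosis genes it called 1, the spindle protein Nusap1 (-0.50 ± 0.13). The calls of E2f3, Ccnd1, Cdkn1a, Cdkn1c, Rb1, E2f1 and Nusap1 ended without day 1 replicate 1, with adjusted p of 0.0714, 0.0549, 0.0514, 0.0803, 0.0808, 0.164 and 0.259 in that order. The calls of Ccnd1, Rb1 and E2f1 ended without day 1 replicate 2, with adjusted p of 0.0953, 0.142 and 0.0866 in that order. The calls of Ccnd1, E2f1 and Nusap1 ended without day 0 replicate 1, with adjusted p of 0.125, 0.133 and 0.104 in that order. The calls of Cdkn1a, Cdkn1c, Rb1, E2f1 and Nusap1 ended without day 0 replicate 2, with adjusted p of 0.0502, 0.11, 0.249, 0.114 and 0.0653 in that order.

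Genes of the calcineurin-NFAT system were called in 1 of 10 subunits and regulators, 2 of 15 factors and kinases and 3 of 12 targets, against 13% of all genes. Of the subunits and regulators, 1 fell and 0 rose (2 and 0 at an unadjusted p under 0.05 in limma). That gene was Ppp3cc, a catalytic subunit isoform, at 5.40 and 5.80 at day 1, against 6.31 and 6.62 at day 0 (-0.87 ± 0.21, adjusted p = 0.00948). Ppp3ca, which encodes another isoform of the catalytic A subunit, read 8.39 and 8.09 at day 1, against 8.60 and 8.23 at day 0 (-0.18 ± 0.16, adjusted p = 0.538). It is not known whether its probes read the transgene, so this checks nothing about induction. Rcan1, a feedback inhibitor of calcineurin that NFAT turns on in other cells, read 9.71 and 9.88 at day 1, against 9.89 and 10.11 at day 0 on its brightest probe (-0.20 ± 0.13, adjusted p = 0.354). A dimmer Rcan1 probe was detected on both day 1 arrays and on neither day 0 array, at 5.62 and 5.47 at day 1, against 4.76 and 5.10 at day 0 (0.62 ± 0.21, adjusted p over probes = 0.0650). Ppp3cb changed by -0.34 ± 0.13 (adjusted p = 0.0879) and Rcan3 by 0.13 ± 0.12 (adjusted p = 0.522). The call of Ppp3cc ended without day 1 replicate 1 (adjusted p = 0.178). The call of Ppp3cc ended without day 0 replicate 2 (adjusted p = 0.129).

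Of the NFAT factors, Nfatc3 and Nfatc4 were detected and not called, at 0.17 ± 0.13 (adjusted p = 0.471) and 0.11 ± 0.15 (adjusted p = 0.717). Nfatc1, Nfatc2 and Rcan2 had no probe detected on any of the 4 arrays. Among 15 NFAT factors, kinases and other calcineurin-linked factors measured, 1 rose and 1 fell, namely Csnk1d, a casein kinase, at 11.02 and 10.74 at day 1, against 10.36 and 10.19 at day 0 (0.61 ± 0.13, adjusted p = 0.00291), and Homer3, a scaffold protein, at 5.29 and 5.51 at day 1, against 5.72 and 6.49 at day 0 (-0.70 ± 0.21, adjusted p = 0.0291). Of 12 measured genes known as NFAT targets in other cells, Ccnd1 rose, and Egr1 and Vegfa fell. Vegfa, the endothelial growth factor, read 6.97 and 7.01 at day 1, against 8.21 and 7.62 at day 0 (-0.93 ± 0.20, adjusted p = 0.00412), and Ccnd1 read 11.51 and 11.65 at day 1, against 11.08 and 11.23 at day 0 (0.42 ± 0.11, adjusted p = 0.0141). One more probe was not called, at 0.38 for Csnk1d (adjusted p over probes = 0.133). The calls of Csnk1d, Homer3, Vegfa and Ccnd1 ended without day 1 replicate 1, with adjusted p of 0.0996, 0.248, 0.0524 and 0.0549 in that order. The call of Ccnd1 ended without day 1 replicate 2 (adjusted p = 0.0953). The calls of Vegfa and Ccnd1 ended without day 0 replicate 1, with adjusted p of 0.1 and 0.125 in that order. The calls of Csnk1d and Homer3 ended without day 0 replicate 2, with adjusted p of 0.0656 and 0.476 in that order.

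Core and naive pluripotency genes were called in 2 of 11 and 2 of 18, against 13% of all genes. Of 11 core pluripotency genes, 1 rose and 1 fell, namely Utf1 (0.61 ± 0.15, adjusted p = 0.0109) and Sox2 (-0.51 ± 0.13, adjusted p = 0.00938). Pou5f1, which encodes OCT4, read 12.84 and 13.08 at day 1, against 13.13 and 13.14 at day 0 (-0.17 ± 0.12, adjusted p = 0.366), and Nanog read 12.40 and 12.61 at day 1, against 12.73 and 12.48 at day 0 (-0.10 ± 0.11, adjusted p = 0.61). Of 18 naive pluripotency genes, Gbx2 rose and the adhesion molecule Pecam1 fell (-0.64 ± 0.16, adjusted p = 0.0111). Gbx2, a homeobox gene downstream of LIF, read 12.69 and 12.31 at day 1, against 11.20 and 11.41 at day 0 (2.28-fold higher, 1.19 ± 0.17, adjusted p = 7.74e-05). Of 18 LIF and STAT3 targets, limma called 3 higher and 0 lower (4 and 4 at an unadjusted p under 0.05), against 7.59% of all genes rising, which adds the survival gene Ier3 (0.92 ± 0.23, adjusted p = 0.0103) and the kinase gene Sgk1 (0.42 ± 0.11, adjusted p = 0.012) to Gbx2. Not called were further probes at 0.04 for Pecam1 (adjusted p over probes = 0.943) and 0.47 for Sgk1 (adjusted p over probes = 0.0634). The calls of Utf1, Sox2, Pecam1, Ier3 and Sgk1 ended without day 1 replicate 1, with adjusted p of 0.259, 0.192, 0.259, 0.289 and 0.219 in that order. The calls of Utf1, Sox2 and Sgk1 ended without day 0 replicate 1, with adjusted p of 0.0947, 0.0823 and 0.0656 in that order. The calls of Pecam1, Ier3 and Sgk1 ended without day 0 replicate 2, with adjusted p of 0.132, 0.218 and 0.0764 in that order.

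LIF withdrawal for 1 day gave the contrast for these genes, and it shares no array with the deltaCnA comparison. There 863 of 9941 genes were called (8.68%, with 3.66% higher and 5.02% lower), and the difference between both day 1 responses was tested as an interaction, which called 1218 genes (12.3%, with 7.56% higher and 4.69% lower with deltaCnA). Of the 18 naive genes, 14 fell with LIF withdrawal, and of the 18 LIF and STAT3 targets 12 fell. The interaction called 8 naive genes and 11 LIF and STAT3 targets as higher with deltaCnA, and 1 gene of each list as lower. Socs3, the feedback inhibitor of STAT3, read 11.64 and 11.36 at day 1, against 11.33 and 11.31 at day 0 of the deltaCnA course, and 6.29 and 6.87 at day 1 of LIF withdrawal, against 11.48 and 11.26 at its day 0. The difference between both changes was 4.97 ± 0.29 (adjusted p = 6.26e-11). Klf4, a naive factor, changed by 0.26 with deltaCnA and -1.89 with LIF withdrawal (difference 2.15, adjusted p = 1.57e-06), and Tfcp2l1 by -0.04 and -1.64 (difference 1.60, adjusted p = 1.15e-06). Gbx2 changed by 1.19 and -0.65 (difference 1.84, adjusted p = 1.22e-05). Esrrb and Zfp42 did not pass this test (adjusted p = 0.0565 and 0.207). Without day 1 replicate 1 the interaction called 674 genes, and without day 0 replicate 2 of the deltaCnA course 708.

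The stress genes differed between both responses too. The interaction called 10 of 24 integrated stress response genes, 4 of 12 amino acid synthesis genes, 5 of 18 tRNA synthetases and 5 of 14 p53 targets as lower with deltaCnA, against 4.69% of all genes. The lists and genes were picked with their deltaCnA changes known, and the interaction uses those same arrays. A lower value with deltaCnA is thus partly built in, and the counts and p-values of this paragraph are descriptions. With LIF withdrawal 2 integrated stress response genes rose and 1 fell, Jdp2. Ddit3 changed by -2.05 with deltaCnA and by -0.52 with LIF withdrawal (difference -1.52 ± 0.28, adjusted p = 0.000759). Vldlr differed by -2.75 (adjusted p = 0.000121) and Chac1 by -1.97 (adjusted p = 0.0256). Nupr1 missed the threshold at -1.65 ± 0.62 (adjusted p = 0.0844), and Jdp2 changed by -1.16 with deltaCnA and -1.20 with LIF withdrawal. The call of Jdp2 ended without day 1 replicate 1 (adjusted p = 0.113).

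Of the genes called in both responses, 86 went the same way and 104 opposite ways. There were 39 genes higher in both (5.17% of the deltaCnA list and 10.7% of the LIF list), 47 lower in both (8.77% and 9.42%), 77 higher with deltaCnA and lower with LIF withdrawal (10.2% and 15.4%) and 27 lower with deltaCnA and higher with LIF withdrawal (5.04% and 7.42%). Over all genes, 3.66% were higher and 5.02% lower with LIF withdrawal, and 7.59% were higher and 5.39% lower with deltaCnA. Among the opposite genes, Htra1 read 8.87 and 8.34 at day 1, against 6.95 and 6.91 at day 0 with deltaCnA, and 6.57 and 7.10 at day 1 of LIF withdrawal, against 8.40 and 8.83 at its day 0. Slc6a12, a betaine transporter, was detected on neither day 0 deltaCnA array and rose at least 2.42-fold, while it changed by -1.78 with LIF withdrawal. Slc51a, a steroid and bile acid transporter subunit, changed by 1.38 and -1.21, Khdc3, an oocyte and early embryo protein, by 1.24 and -1.22, the mucin Muc1 by 0.99 and -2.47, and the protease inhibitor Spink1 by 0.98 and -2.06, each with the deltaCnA change given before that of LIF withdrawal. In the other direction, Kif21a, a kinesin, changed by -1.11 with deltaCnA and 1.74 with LIF withdrawal, and Otx2, a factor of the primed epiblast, by -0.91 and 1.27. Ccnd2, Ccno and Slc40a1 rose in both, Ccno by 1.99 with deltaCnA and 2.86 with LIF withdrawal. One more probe was not called, at 0.72 for Muc1 (adjusted p over probes = 0.0557). The calls of Muc1, Spink1 and Otx2 ended without day 1 replicate 1, with adjusted p of 0.117, 0.0514 and 0.127 in that order. The calls of Muc1 and Otx2 ended without day 0 replicate 2, with adjusted p of 0.195 and 0.108 in that order.

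**Figure D4:**
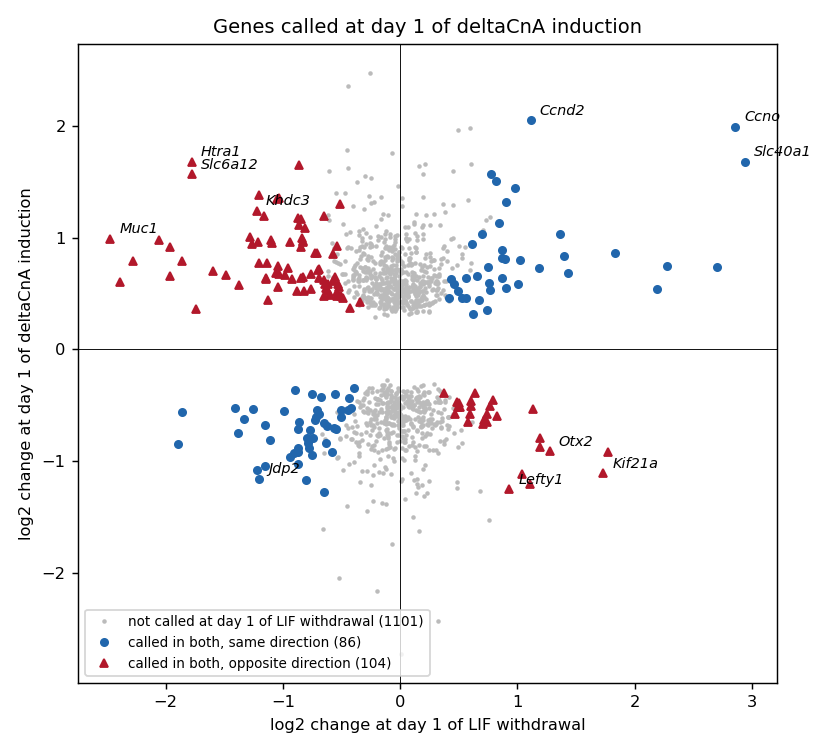
Log2 change at day 1 of deltaCnA induction (y axis) against log2 change at day 1 of LIF withdrawal (x axis) for the 1291 genes called with deltaCnA. Of these, 1101 were not called with LIF withdrawal (grey dots), 86 were called in the same direction (blue circles) and 104 in the opposite direction (red triangles).

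Of the lineage lists, which are short, mesendoderm had 4 of 8 genes called, primed epiblast 3 of 7 and primitive endoderm 3 of 8, against 13% of all genes. Of 8 measured genes of mesendoderm and primitive streak, Wnt3a and Sp5 rose and Lefty1 and Lefty2 fell. Wnt3a, a Wnt ligand, read 6.89 and 6.39 at day 1, against 5.36 and 4.86 at day 0 and was detected on 1 of 2 day 0 arrays (at least 2.57-fold higher, 1.53 ± 0.25, adjusted p = 0.000343). Sp5, a known direct target of Wnt signalling, read 6.95 and 6.72 at day 1, against 5.17 and 5.70 at day 0 (2.64-fold higher, 1.40 ± 0.21, adjusted p = 0.000119). Lefty1 read 10.40 and 11.69 at day 1, against 12.28 and 12.32 at day 0 (-1.25 ± 0.29, adjusted p = 0.00634). Etv2, a factor that directs cells to blood and endothelium, read 9.44 and 9.26 at day 1, against 7.89 and 7.70 at day 0 (2.94-fold higher, 1.55 ± 0.19, adjusted p = 1.53e-05), and it was the 1 called gene of 6 in that list. Bmp4 was the 1 called gene of 8 mesoderm genes (0.77 ± 0.22, adjusted p = 0.0238). Of 8 primitive endoderm genes, the collagens Col4a1 (0.91 ± 0.21) and Col4a2 (0.74 ± 0.17) and the adaptor Dab2 (detected on neither day 0 array, at least 1.32-fold) rose. The other 5 were not called. The primitive endoderm markers Gata6, Sox17, Sox7 and Foxa2 were detected on none of the 4 arrays. With Gata4 and Dab2 added, the summed linear level of the 6 markers was 156 and 139 at day 1, against 144 and 163 at day 0.

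Of 7 primed epiblast genes, Sall2 (0.74 ± 0.24) and Dnmt3l (0.38 ± 0.13) rose and Otx2 fell. Otx2 read 7.61 and 8.14 at day 1, against 8.54 and 9.03 at day 0 (-0.91 ± 0.20, adjusted p = 0.00365) and was also the 1 called gene of 4 in neuroectoderm. Of 7 trophectoderm, 5 fibroblast and 2 measured 2-cell-like genes, limma called 0, with 1 fibroblast gene at an unadjusted p under 0.05. Etv4, an ETS factor downstream of ERK, was the 1 called gene of 11 in the list of Src family and ERK feedback (0.64 ± 0.21). Beside the lists of this paragraph, 13% of all genes were called. The calls of Lefty1, Bmp4, Col4a1, Col4a2, Dab2, Otx2, Sall2, Dnmt3l and Etv4 ended without day 1 replicate 1, with adjusted p of 0.27, 0.309, 0.0827, 0.0808, 0.564, 0.127, 0.673, 0.319 and 0.46 in that order. The call of Dnmt3l ended without day 1 replicate 2 (adjusted p = 0.0625). The calls of Bmp4, Dab2, Sall2, Dnmt3l and Etv4 ended without day 0 replicate 1, with adjusted p of 0.112, 0.138, 0.0673, 0.219 and 0.268 in that order. The calls of Lefty1, Bmp4, Col4a1, Col4a2, Dab2, Otx2, Sall2, Dnmt3l and Etv4 ended without day 0 replicate 2, with adjusted p of 0.0668, 0.117, 0.0961, 0.0656, 0.162, 0.108, 0.319, 0.124 and 0.0925 in that order.

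Among imprinted genes, 2 of 11 rose and 3 fell, against 7.59% and 5.39% of all genes. Igf2 rose as given above while Igf2r, the receptor that clears IGF2, fell (8.66 and 8.67 at day 1, against 9.33 and 9.47 at day 0, -0.73 ± 0.13, adjusted p = 0.000828). Grb10, an inhibitor of insulin-type receptors, read 11.33 and 11.48 at day 1, against 12.08 and 12.06 at day 0 (-0.67 ± 0.11, adjusted p = 0.000452), and Cdkn1c (-0.53 ± 0.13) fell and Mest (detected on 1 of 2 day 0 arrays, at least 1.55-fold) rose. Of 6 lipoxygenase genes, Alox12e and Alox5ap, which presents arachidonic acid to 5-lipoxygenase, rose and Alox12 fell. Alox5ap and Alox12 changed by 0.99 ± 0.22 and -0.78 ± 0.23. Abca14 was the 1 called gene of 6 of its transporter subfamily. Of 9 lipoprotein receptors and partners, Lrp4 rose (0.70 ± 0.22), and Vldlr, the sorting receptor Sorl1 (-0.72 ± 0.14) and the lipid carrier Apoe (-0.70 ± 0.18) fell. Beside these short lists, 13% of all genes were called, 7.59% rising and 5.39% falling. Other kept probes, which were not called, changed by -0.52 for Grb10 (adjusted p over probes = 0.104), 0.04 for Alox12 (adjusted p over probes = 0.926) and 0.36 for Lrp4 (adjusted p over probes = 0.143). The calls of Cdkn1c, Mest, Alox5ap, Alox12, Lrp4 and Apoe ended without day 1 replicate 1, with adjusted p of 0.0803, 0.0523, 0.0808, 0.615, 0.327 and 0.294 in that order. The call of Mest ended without day 1 replicate 2 (adjusted p = 0.0985). The call of Alox12 ended without day 0 replicate 1 (adjusted p = 0.0845). The calls of Cdkn1c, Mest, Alox5ap, Alox12, Lrp4 and Apoe ended without day 0 replicate 2, with adjusted p of 0.11, 0.235, 0.0832, 0.155, 0.332 and 0.124 in that order.

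Genes of translation and respiration were followed as 3 lists. Of 71 mitochondrial ribosomal protein genes limma called 8 higher and 0 lower (17 and 12 at an unadjusted p under 0.05), against 7.59% of all genes rising, with a median of 0.06. Mrpl17 read 13.72 and 13.60 at day 1, against 13.12 and 13.11 at day 0 (0.55 ± 0.09, adjusted p = 0.000568), and Mrps12, Mrpl34 and Mrps17 changed by 0.66, 0.54 and 0.50. Of 52 cytosolic ribosomal protein genes 3 fell and 0 rose (7 and 1 at an unadjusted p under 0.05 in limma), against 5.39% of all genes falling, namely Rps15a (-0.56), Rpl22 (-0.46) and Rps24 (-0.41). Of 66 respiratory complex genes, 7 fell and 1 rose, against 5.39% and 7.59% of all genes. Ndufa10 of complex I read 11.89 and 12.06 at day 1, against 12.58 and 12.52 at day 0 (-0.58 ± 0.11, adjusted p = 0.0012), Sdhb of complex II and Cox7a1 of complex IV changed by -0.48 and -0.46, and Atp5j of the ATP synthase rose (0.90). Not called were further probes at -0.03 for Rps24 (adjusted p over probes = 0.933), -0.31 for Ndufa10 (adjusted p over probes = 0.393) and -0.0038 for Atp5j (adjusted p over probes = 0.996). The calls of Mrps12, Mrpl34, Rps15a, Rpl22, Rps24, Sdhb, Cox7a1 and Atp5j ended without day 1 replicate 1, with adjusted p of 0.145, 0.0697, 0.178, 0.0653, 0.29, 0.141, 0.264 and 0.232 in that order. The calls of Rpl22 and Cox7a1 ended without day 1 replicate 2, with adjusted p of 0.0903 and 0.094 in that order. The calls of Mrps12, Rps15a, Sdhb, Cox7a1 and Atp5j ended without day 0 replicate 1, with adjusted p of 0.0579, 0.158, 0.0929, 0.192 and 0.133 in that order. The calls of Mrps12, Rpl22, Rps24, Sdhb, Cox7a1 and Atp5j ended without day 0 replicate 2, with adjusted p of 0.0702, 0.192, 0.31, 0.0679, 0.152 and 0.0883 in that order.

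Other lists gave single genes. Of 9 oocyte and germline genes, Khdc3 (2.36-fold, 1.24 ± 0.16, adjusted p = 2.65e-05) and the zona pellucida gene Zp3 (0.80 ± 0.19) rose and Piwil2, which acts in piRNA silencing, fell (-0.64 ± 0.16). Of 11 immediate early genes, Ier3 rose and Egr1 fell. Of 16 genes of hypoxia and glycolysis, the glucose transporter Slc2a1 (0.60 ± 0.15) and the glycolytic enzyme Aldoa (0.32 ± 0.09) rose and Vegfa fell. Ifitm2 was the 1 called gene of 9 interferon-type genes (0.38 ± 0.10). These 4 lists had 3, 2, 3 and 1 genes called in that order, against 13% of all genes. A further probe that was not called changed by 0.26 for Ifitm2 (adjusted p over probes = 0.158). The calls of Zp3, Slc2a1, Aldoa, Ifitm2, Ier3 and Vegfa ended without day 1 replicate 1, with adjusted p of 0.125, 0.121, 0.155, 0.16, 0.289 and 0.0524 in that order. The calls of Piwil2 and Aldoa ended without day 1 replicate 2, with adjusted p of 0.0821 and 0.0615 in that order. The calls of Aldoa, Ifitm2 and Vegfa ended without day 0 replicate 1, with adjusted p of 0.0523, 0.0701 and 0.1 in that order. The calls of Zp3, Piwil2, Slc2a1, Aldoa, Ifitm2 and Ier3 ended without day 0 replicate 2, with adjusted p of 0.102, 0.112, 0.172, 0.163, 0.106 and 0.218 in that order.

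Day 4 of the same course shows what followed. It shares the day 0 arrays with one comparison and the day 1 arrays with the other, so the values are set side by side. Lists and genes were picked with their day 1 values known, so a move back after day 1 is partly built in. The day 4 counts and p-values given here and below are thus descriptions. Against day 0, 392 genes (3.94%) were called at day 4 (2.98% higher, 0.966% lower), and between day 4 and day 1, 1759 (17.7%) were (9% higher, 8.69% lower at day 4). Of the 24 integrated stress response genes, limma called 0 between day 4 and day 0 (1 at an unadjusted p under 0.05), with a median change of 0.14, and 14 rose between day 1 and day 4. Ddit3 read 9.50 and 9.72 at day 0, 7.29 and 7.84 at day 1, and 9.97 and 10.15 at day 4 (day 4 minus day 1 2.50 ± 0.20, adjusted p = 5.68e-08). Chac1 read 11.20 and 11.15 at day 0, 7.77 and 10.26 at day 1, and 11.45 and 11.56 at day 4 (day 4 minus day 1 2.49 ± 0.41, adjusted p = 0.00021). The day 4 arrays lay above the day 0 arrays for both, without passing the test (adjusted p = 0.255 for Ddit3 and 0.784 for Chac1). Of the tRNA synthetases 8 of 18, of amino acid synthesis 9 of 12 and of p53 targets 7 of 14 rose between day 1 and day 4, and limma called 0 of each between day 4 and day 0 (0, 3 and 0 at an unadjusted p under 0.05). Of the cholesterol genes 7 of 15 fell between day 1 and day 4.

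The largest rises followed several courses. Ccnd2 read 7.08 and 6.97 at day 0, 9.24 and 8.90 at day 1, and 6.56 and 6.29 at day 4 (day 4 minus day 1 -2.65 ± 0.23, adjusted p = 1.78e-07), and S100a6 read 10.90 and 11.03 at day 0, 12.96 and 12.54 at day 1, and 11.03 and 10.99 at day 4 (day 4 minus day 1 -1.74 ± 0.17, adjusted p = 8.53e-07). The day 4 arrays lay below the day 0 arrays for Ccnd2 and overlapped them for S100a6. Abca14 read 6.23 and 5.53 at day 0, 8.32 and 8.16 at day 1, and 8.31 and 8.09 at day 4, so it stayed at its day 1 level, and day 4 minus day 0 was 2.32 (adjusted p = 2.73e-07). Igf2 read 8.31 and 7.71 at day 0, 10.06 and 9.47 at day 1, and 11.04 and 10.48 at day 4 and rose further after day 1 (day 4 minus day 1 0.99 ± 0.23, adjusted p = 0.00473). Col4a1, whose day 1 rise is given above, read 7.45 and 7.17 at day 0, 8.29 and 8.14 at day 1, and 10.05 and 9.27 at day 4, with most of its rise after day 1 (day 4 minus day 1 1.44 ± 0.21, adjusted p = 7e-05). Lefty2 read 11.75 and 11.82 at day 0, 9.55 and 10.52 at day 1, and 10.49 and 10.54 at day 4, below day 0 on both later days, with day 4 minus day 0 at -1.27 (adjusted p = 0.0104). Gbx2 read 11.20 and 11.41 at day 0, 12.69 and 12.31 at day 1, and 12.66 and 12.30 at day 4, above day 0 on both later days, with day 4 minus day 0 at 1.17 (adjusted p = 9.52e-05). The call of Col4a1 ended without day 1 replicate 1 (adjusted p = 0.0827). The call of Col4a1 ended without day 0 replicate 2 (adjusted p = 0.0961).

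**Figure D5:**
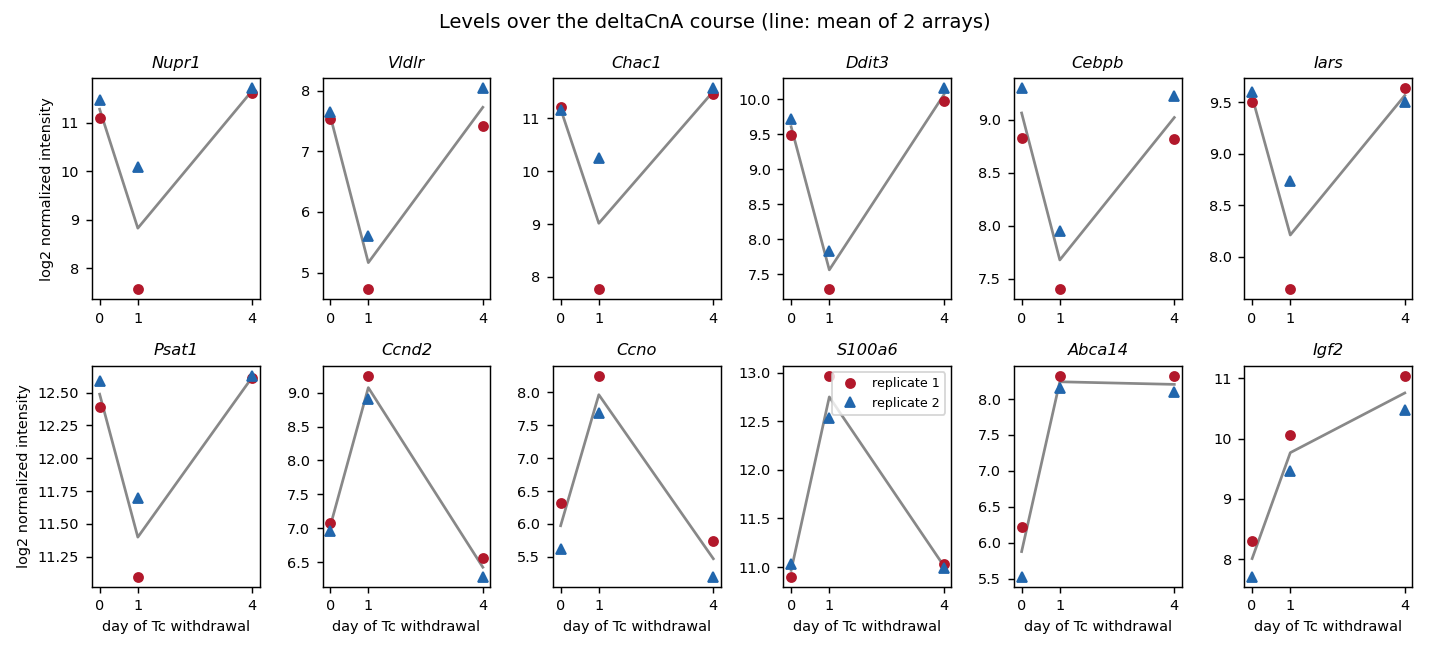
Log2 normalized intensity (y axis, scaled to each gene) at days 0, 1 and 4 of Tc withdrawal (x axis) for 12 genes. Circles and triangles are the 2 arrays of a day and the line joins their means. Ddit3 read 9.50 and 9.72 at day 0, 7.29 and 7.84 at day 1, and 9.97 and 10.15 at day 4, while Igf2 was highest at day 4.

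Probes without a gene symbol also changed. Of 4771 such probes, 386 were called (8.09%), 176 higher and 210 lower, and they are not named here. Of 417 called genes with a further kept probe, 145 had it called in the same direction and 6 in the other.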

How the data were processed

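Total RNA was taken with Trizol and turned into biotinylated cRNA (Ambion MessageAmp), per the labels' protocols. The authors deposited probe intensity values on a linear scale, not normalized between arrays, each with a detection p-value. Scanner software is not given in the sources used here. A deposited series matrix, whose signal values are linear, ranked probes as the intensities did and was used as an alternative.

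Background was modelled by normexp from the detection p-values (offset 16, limma 3.58.1 in R 4.3.3), followed by quantile normalization and log2. The kept probe with the highest mean stood for its gene (3127 genes had 2 or more). One linear model of 9 groups over 18 arrays (9 residual degrees of freedom, eBayes with trend) gave every contrast. Where a group was undetected on 1 or both arrays, a fold is a bound, taken from the bright group's mean over the dim arrays' lowest detected signal, or the probe's own signal if higher. Named genes are the 15 largest rises and falls, 6 markers, calcineurin and NFAT genes and up to 4 called members of a list. A further 56 were added after their values were seen. Members and lists were chosen with earlier results of these data known. No label calls the replicates separate cultures, so the p-values may reflect technical spread alone. The number of arrays limits the precision. 0 columns were left unused.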

Additional observations from a re-analysis of the deposited data

How the results depend on the processing

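Of 145 named genes called, 52 kept direction and call under all alternatives, 93 lost the call under at least 1 and 0 changed direction. Of 21 named genes not called, 5 became called under at least 1. The 1291 genes called became 518 with median scaling (339 higher, 179 lower), 858 without a detection filter (345 lower) and 2107 with the replicate block (1197 higher, 910 lower), which includes all 1291. Median scaling left 511 of the calls shared. The median change of all genes was 0.06 with median scaling, against 0.01. Without single arrays, 275 to 1156 genes were called, 162 to 652 higher and 113 to 504 lower. The interaction with LIF withdrawal called 1967 genes with the replicate block and 674 to 1229 without single arrays. Alternatives for list counts were added after the data were seen. Without single arrays, integrated stress response genes called lower ran from 6 to 14, amino acid synthesis from 2 to 8, tRNA synthetases from 3 to 10, p53 targets from 1 to 6, and cholesterol genes called higher from 0 to 6. Cholesterol genes called numbered 0 with median scaling, 4 without a detection filter and 5 without an intensity trend, and p53 targets 2 with median scaling. The causes were not tested, beyond fewer arrays in the first and more probes tested without a filter. Deviations of same-numbered arrays correlated by 0.206 between day 1 and day 0, 0.139 between day 1 and day 4 and 0.180 between day 0 and day 4, but a group has only 2 numbers and no label says what they share. With the replicate block all 5 of the newly called named genes passed, at adjusted p = 0.00536 for Asns, 0.0377 for Cbs, 0.029 for Ddit4, 0.00929 for Derl3 and 0.0363 for Ppp3cb. Quantile normalization of the 4 arrays alone, the series matrix, other offsets and detection limits left the count within 1.5 times of 1291. With 2 arrays a group and background near dim probes, small changes of dim genes are not resolved.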

Other observations

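The day 1 changes of Ddit3 and S100a6 went towards the level of CGR8 cells at day 0 of LIF withdrawal. That is another line and course, for which no difference was fitted, and the genes that moved so were not counted. The lowest raw intensity ran from -58.0 to -48.7 on the day 0 and day 1 deltaCnA arrays. On the CGR8 arrays of day 0 it was -29.4 and -23.7, and the part of this in the levels was not tested. Ddit3 read 7.29 and 7.84 at day 1 and 9.50 and 9.72 at day 0 of Tc withdrawal, and 8.16 and 7.89 in CGR8 cells. S100a6 read 12.96 and 12.54 at day 1, against 10.90 and 11.03 at day 0 of Tc withdrawal, and 13.22 and 12.97 in CGR8 cells. Chac1 was different, at 7.77 and 10.26 at day 1, against 11.20 and 11.15 at day 0, and 11.13 and 10.91 in CGR8 cells, where its day 1 level was the lowest. Txnip, which binds thioredoxin and limits glucose uptake and was picked after its values were seen, fell to 10.66 and 11.002 at day 1, against 12.23 and 11.91 at day 0 (-1.24 ± 0.20, adjusted p = 0.000283).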
